A study of Mus musculus with 20 samples.

Results

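The early coding sequence is taken here as codons 15 to 100, counted with the start codon as codon 0, and its ribosome footprints were set against those above codon 100 of the same mRNA. Codons were taken from tables of footprint counts per codon, in which the lowest listed position was codon 15. An mRNA entered in a library when its summed coverage there was at least 50 footprints, which left 2296 to 3361 mRNAs per library and 21337 to 41488 listed early codons. Of 11113 mRNAs listed in any library, 2002 passed in all 10. Of these, 1306 had listed codons in both regions and form the set compared below, 83 had early codons alone and 613 had later codons alone. At the border, the lowest coverage of Gfpt2 over the libraries was 50 footprints, a value shared by 17 mRNAs, and that of Ormdl3 was 49, shared by 13 mRNAs just outside.

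Hippocampi of Qtrt1-/- mice and wild-type mice of both sexes were profiled, 1 footprint library per animal. The groups were 3 knockout females, 3 wild-type females, 2 knockout males and 2 wild-type males. Females were 6 months and 21 or 22 days old. In each genotype, male 1 was 6 months and 18 days old and male 2 was 5 months and 16 days old, so sex and age cannot be told apart. No source used here gives the strain or how the allele was made. Lysis buffer contained cycloheximide, a drug that stalls elongating ribosomes, and RNase I removed the RNA outside them. The p-values below measure the spread between these animals.

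The Qtrt1 protein catalyses an exchange of guanine for queuine at the wobble base of 4 tRNAs, those carrying tyrosine, histidine, asparagine and aspartate. Queuosine, the nucleoside that results, is known to affect how fast these tRNAs decode their codons, and the title of the series ties it to elongation speed, sex, learning and memory. The first stretch of a coding sequence is where newly initiated ribosomes start to elongate and where signal peptides and first transmembrane segments leave the ribosome. Footprints there reflect both how often ribosomes start and how fast they move on. The ratio to the later part of the same mRNA largely takes out the level of that mRNA where counts are high. At low counts the small constant added to early and later footprints, given below, leaves the ratio partly tied to that level and to depth.

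Depth and tissue content differed between animals. Coverage totalled 1071976 to 3032432 footprints per library. It was 1650160, 1509215 and 1705276 in knockout females against 1295655, 1135853 and 1437740 in wild-type females, which did not overlap. Knockout males had 1482421 and 1165964 against 3032432 and 1071976 in wild-type males. The part of depth in the early values below was not tested. Qtrt1 gene counts in footprints were 5, 1 and 4 in knockout females against 40, 28 and 30 in wild-type females, while knockout males had 10 and 3 against 94 and 46 in wild-type males, and its mRNA carried 0 footprints in the codon tables. All 12 markers of hippocampal fields were read in every footprint library, at a summed 1686 to 1907 CPM, gene counts scaled to a common library total, in knockout animals against 1096 to 1758 CPM in wild-type animals. The 12 choroid plexus markers summed to 9290, 7135 and 2229 CPM in knockout females against 147, 292 and 5752 CPM in wild-type females, while knockout males had 13941 and 8888 CPM against 11816 and 12382 CPM in wild-type males. The 12 striatal markers summed to 339, 710 and 267 CPM in knockout females against 1299, 542 and 1118 CPM in wild-type females, and to 259 to 311 CPM in the 4 males, with 1 marker at 0 in wild-type male 2. The 10 markers of meninges and fibroblasts summed to 394 to 517 CPM in knockout females against 212 to 361 CPM in wild-type females, and the 10 oligodendrocyte markers to 2882 to 5584 CPM over all libraries. Wild-type females 1 and 2 therefore held the least choroid plexus RNA, and results are given without them where a count rests on them.

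Single codons at which the genotypes differed carry most of what was found, so the sequences around several of them are printed first. Each run is 5′ to 3′ on the coding strand, from GENCODE M21 transcripts on GRCm38, with the listed codon and the codon before it in capitals. The table does not name a ribosomal site, so either of these may be the decoded codon. Shown are sites with a higher share in knockout animals (Chst2, Vwa1, Eif1ax), sites with a lower share (Laptm4a, Ndufa8, Rab8b, Sstr4), a site with an aspartate pair (Pgrmc1), and the site with the highest mean share of its mRNA over the libraries (Tppp).
Chst2 codon 72: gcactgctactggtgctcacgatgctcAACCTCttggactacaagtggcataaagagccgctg
Vwa1 codon 48: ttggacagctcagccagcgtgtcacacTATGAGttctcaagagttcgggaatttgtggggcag
Eif1ax codon 61: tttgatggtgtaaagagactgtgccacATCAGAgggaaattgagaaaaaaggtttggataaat
Laptm4a codon 93: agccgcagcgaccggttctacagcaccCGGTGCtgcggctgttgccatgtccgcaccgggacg
Ndufa8 codon 65: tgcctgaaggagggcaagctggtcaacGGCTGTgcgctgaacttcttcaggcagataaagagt
Rab8b codon 20: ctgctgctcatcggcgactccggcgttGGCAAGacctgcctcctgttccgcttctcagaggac
Sstr4 codon 90: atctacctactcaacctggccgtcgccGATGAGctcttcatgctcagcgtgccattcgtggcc
Pgrmc1 codon 59: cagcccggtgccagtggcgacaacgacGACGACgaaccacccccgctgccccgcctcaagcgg
Tppp codon 86: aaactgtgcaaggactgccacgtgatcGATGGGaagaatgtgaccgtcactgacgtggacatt

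Which mRNAs could be compared was set partly by sequence. Among 960 mRNAs with a mean coverage of at least 300, 56.2% of 47847 early codons whose surrounding 28 bases occur in 1 annotated transcript were listed in some library. Of 34268 early codons whose surrounding bases occur in more than 1 transcript, 0.429% were listed. The later coding sequence gave 54.3% of 422566 codons and 0.694% of 186611 codons. Footprint density was therefore computed per codon of unique sequence, for the 1135 mRNAs with at least 20 such codons in each region. None of 69 cytosolic ribosomal proteins was in the set of 1306. Hsp90b1, the endoplasmic reticulum chaperone GRP94, had 95.8% to 99.7% of its footprints at codons 15 to 100, but with 10 unique codons in the later region it gave no density.

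Ribosomes were less dense on the early coding sequence than further on in the median mRNA. The median ratio of early to later density was 0.684, 0.651 and 0.707 in knockout females against 0.760, 0.743 and 0.711 in wild-type females, while knockout males had 0.824 and 0.786 against 0.820 and 0.819 in wild-type males. With the 5 wild-type libraries averaged per mRNA, the sexes weighing equally, the median ratio was 0.771. Of 1135 mRNAs, 413 (36.4%) were denser early. The ratio spread widely between mRNAs, as the distribution of wild-type densities shows. Its median was 0.674, in a plain mean of the 5 libraries, when the highest codon of each region was left out.

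**Figure D1:**
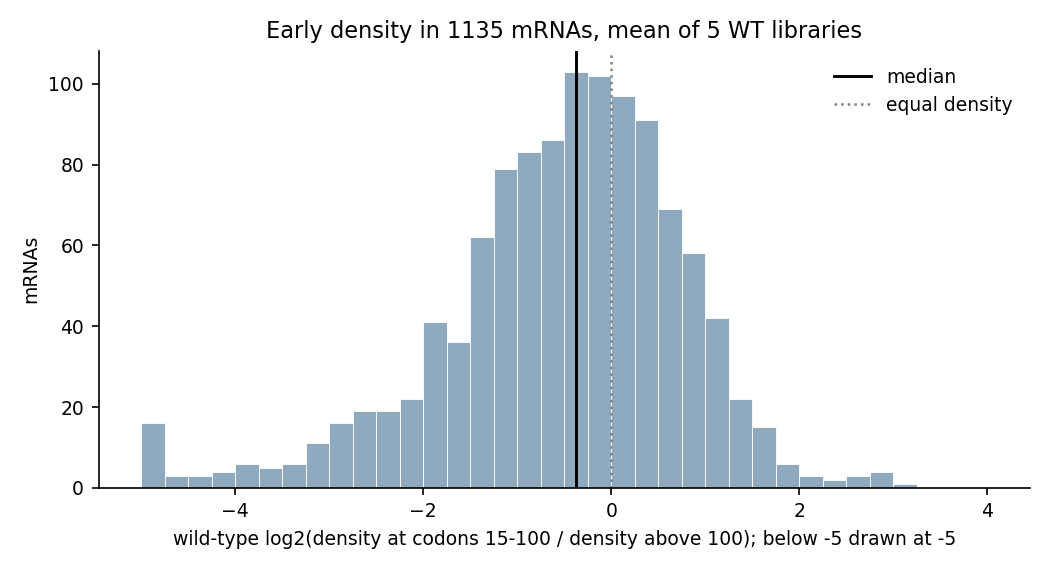
Number of mRNAs (vertical axis) by the log2 ratio of footprint density at codons 15 to 100 to that above codon 100 (horizontal axis), for 1135 mRNAs. Values are means of the 5 wild-type libraries with the sexes weighing equally. The solid line is the median, a ratio of 0.771, and the dotted line marks equal density.

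The 10 highest of the mRNAs with a mean coverage of at least 500 are given first. Pnmal2 came first, with a ratio of 8.79, 6.03 and 7.30 in knockout females against 5.57, 5.91 and 6.26 in wild-type females, while knockout males had 11.7 and 13.8 against 9.88 and 17.3 in wild-type males. Its wild-type ratio was 8.78 with the sexes weighing equally and 8.11 as a plain mean of the 5 libraries. That plain mean was 4.30 once the highest codon of each region was left out. Top1, topoisomerase I, had a wild-type ratio of 7.05, and 20 unique early codons. Its plain mean was 6.84, and 4.21 without the highest codons. The others were Efnb3, the axon guidance ligand ephrin-B3 (4.84), the mitochondrial peroxiredoxin Prdx3 (3.61), the purine salvage enzyme Hprt (3.29), Vstm2l (2.88), the astrocyte potassium channel Kcnj10 (2.87), Gpld1 (2.82), the pyruvate dehydrogenase kinase Pdk3 (2.78) and the GABA-B receptor subunit Kctd12 (2.68). Leaving out the highest codons took Kcnj10 to 1.85, against 2.79 with them, both as plain means of the 5 libraries.

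At the other end, Nefl, the light neurofilament subunit, had 1 early footprint in all 10 libraries, in wild-type male 1, against 1170 to 3239 later footprints per library. A count of 0 allows an early share of up to 0.129% to 0.256% in the other libraries, counting error only, although all 86 of its early codons are of unique sequence. Creg2 also had 1 early footprint in all, in knockout female 3, against 337 to 1054 later footprints. Sfr1 had a wild-type ratio of 0.00669, the phosphatase Phlpp1 one of 0.00954 and the adrenergic receptor Adra1d one of 0.0405. The early window of these mRNAs was thus nearly free of listed footprints in both genotypes.

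Early density went with base composition. Ranked by the GC content of codons 15 to 100, 4 near-equal groups of mRNAs had median wild-type density ratios of 0.897, 0.946, 0.844 and 0.451 from lowest to highest GC, and Spearman's rho across 1135 mRNAs was −0.306. mRNAs with the fewest codons for the queuosine tRNAs in the window (0 to 8 of 86) had a median ratio of 0.533, and those with the most (15 to 28) one of 1.02. Codon content and GC were themselves related, with a rho of −0.533 across 1304 mRNAs, which are not independent replicates. Length was nearly unrelated by the same measure, with ratios of 0.799, 0.767, 0.719 and 0.813 over 4 groups of rising coding length and a rho of −0.031.

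Among 12 lists of genes, early density is given beside the 36.4% of all mRNAs that were denser early. Of 12 secreted proteins and neuropeptide precursors with a signal peptide, 5 were denser early, with a median wild-type ratio of 0.87. Cpe, the carboxypeptidase that trims neuropeptides, stood at 0.268 and the granin Chgb at 0.337. Of 7 tubulins, actins and other cytoskeletal mRNAs 3 were denser early, among them Stmn3, a tubulin-binding stathmin, at 1.95. None of 5 endoplasmic reticulum chaperones was denser early (median 0.76), with Pdia4 at 0.485 and P4hb at 0.640, both protein disulfide isomerases. None of 4 presynaptic mRNAs was (median 0.65), among them the active-zone scaffold Bsn at 0.662. Of 6 targets of the integrated stress response 1 was denser early (median 0.41), namely Ddit4 at 1.38, while the amino-acid transporter Slc7a5 stood at 0.433 and the glycyl-tRNA synthetase Gars at 0.393. Each of the other lists, oxidative phosphorylation, energy enzymes, multi-pass membrane proteins, cytosolic chaperones, translation factors and glutamate receptors, had 1 to 5 members with a density, so the counts are too small to rank the lists.

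Since the title names elongation speed, the genotypes were compared for how much of each mRNA's footprints lay near its start. By the median over mRNAs the early share was not higher in knockouts. The early load, log2 of early over later footprints with a pseudocount of 0.5 and the median taken over 1306 mRNAs, was −2.77, −2.88 and −2.70 in knockout females against −2.61, −2.64 and −2.67 in wild-type females. The female means were −2.78 ± 0.088 in knockouts and −2.64 ± 0.034 in wild types (SD, n = 3 each), and the groups did not overlap. Knockout minus wild type was −0.14 in females, with an exact two-sided permutation p of 0.10, the smallest that 3 against 3 allow (0.14 adjusted over 7 windows and summaries).

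Male medians were −2.45 and −2.56 in knockouts against −2.52 and −2.45 in wild types. The knockout lay above the wild type among the older males and below it among the younger ones. The difference was −0.02 (exact permutation p = 1.0, smallest possible 0.333). Over both sexes it was −0.08 (exact permutation p = 0.117, adjusted 0.163), and the female minus the male difference was −0.12 (exact permutation p = 0.25), so neither was beyond the spread between animals.

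Summing the footprints over the same mRNAs, so that abundant mRNAs weigh more, turned the direction in females. The early share was 21.6%, 20.8% and 19.2% in knockout females against 18.0%, 17.7% and 19.3% in wild-type females, a difference of 2.22 percentage points (exact permutation p = 0.20). It was 26.3% and 24.3% in knockout males against 25.3% and 26.4% in wild-type males. Neither contrast separated the groups. Much of the sum came from Ttr, the thyroxine carrier made by the choroid plexus, which held 19.5%, 16.4% and 5.15% of early footprints in knockout females against 0.339%, 0.694% and 12.02% in wild-type females. In knockout males its part was 22.4% and 14.5%, against 20.0% and 19.4% in wild-type males. Fewer cells of a type and less RNA per cell cannot be told apart in such bulk tissue. Without Ttr the early shares were 18.4%, 18.3% and 18.4% in knockout females against 17.9%, 17.6% and 17.6% in wild-type females, which left knockouts higher by less (exact permutation p = 0.10), while knockout males had 22.4% and 22.0% against 21.9% and 23.1% in wild-type males. In coding sequences of at least 400 codons, the summed share was 0.145 percentage points lower in knockout females.

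**Figure D2:**
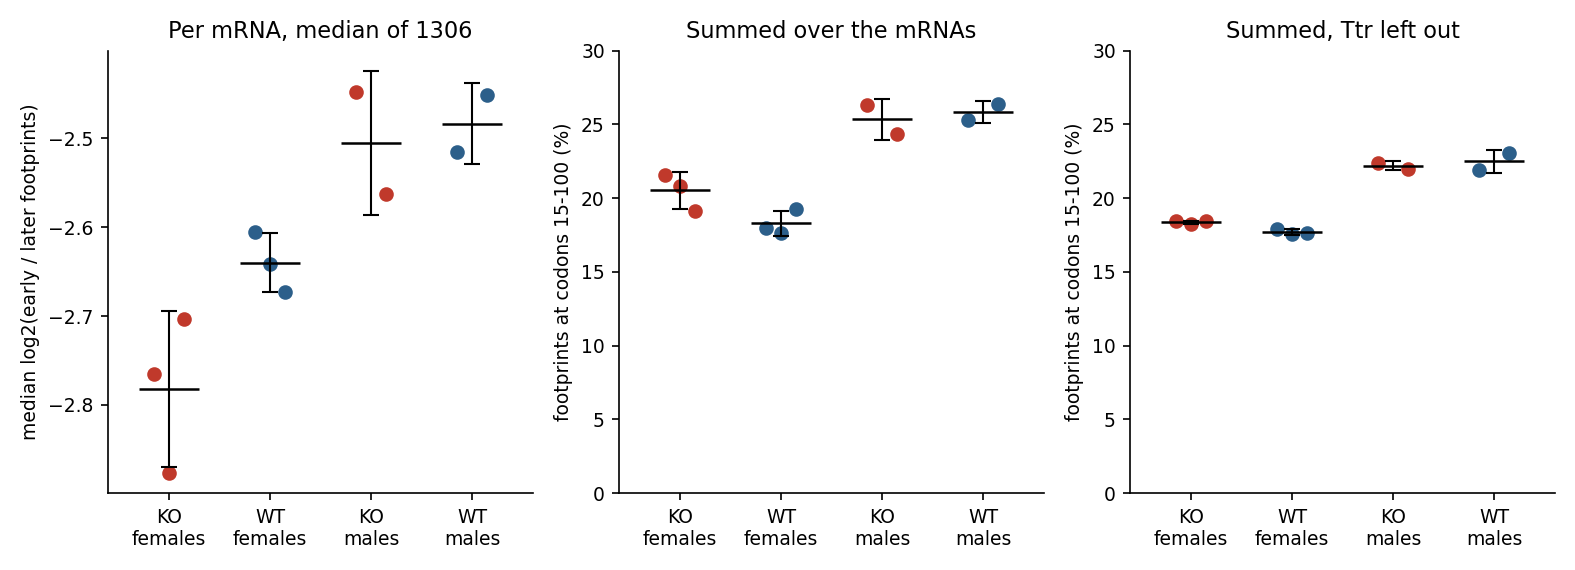
Early load by library in knockout and wild-type females and males, as the median over 1306 mRNAs of log2 early over later footprints (left), the percent of summed footprints at codons 15 to 100 (middle) and that percent with Ttr left out (right). Points are animals, lines are means with SD, and only the females in the left and right panels show groups that do not overlap.

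Within the window, each stretch was set against the later sequence of the same mRNA. Medians over both sexes were lower in knockouts by 0.20 at codons 15 to 30 (1009 mRNAs, exact permutation p = 0.183), by 0.24 at codons 31 to 50 (1074 mRNAs, exact permutation p = 0.0333), by 0.14 at codons 51 to 75 (1119 mRNAs, exact permutation p = 0.05) and by 0.09 at codons 76 to 100 (1133 mRNAs, exact permutation p = 0.0667), all on the log2 scale. None was under 0.05 after adjustment over 7 windows and summaries (lowest 0.117). A window outside the region, the next 100 codons against those above 200, differed by −0.11 (1265 mRNAs, exact permutation p = 0.0333, adjusted 0.117), so the shift was not shown to be particular to codons 15 to 100.

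At codons 31 to 50 the medians were −5.26, −5.31 and −5.05 in knockout females against −4.76, −4.89 and −4.996 in wild-type females, which did not overlap. They were −4.77 and −5.05 in knockout males against −4.78 and −4.72 in wild-type males, which did.

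Along the first codons, the median density over mRNAs was lowest in the first window in every library. Density in each window is given relative to the later coding sequence of the same mRNA, with 483 mRNAs in the first window. At codons 15 to 24 the median was 0.129, 0.0991 and 0.222 in knockout females against 0.258, 0.221 and 0.192 in wild-type females. In males it was 0.310 and 0.181 in knockouts against 0.283 and 0.284 in wild types. The mean over the same mRNAs was far higher, 0.793 to 0.909 in knockout females against 0.690 to 0.794 in wild-type females. Male means were 0.965 and 1.01 in knockouts against 0.912 and 1.09 in wild types. By the mean, male density in the first window was thus about that of the later coding sequence, unlike the medians. By the mean the first window was the lowest in wild-type females 2 and 3 and in no other library. Median and mean also ordered the female groups differently.

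The GC content of the footprints also differed between libraries. Weighted by coverage, the GC of the 28 bases around early codons was 51.7%, 50.8% and 52.5% in knockout females against 54.3%, 54.1% and 53.4% in wild-type females, while knockout males had 55.3% and 53.1% against 53.8% and 56.8% in wild-type males. The female groups did not overlap and the male groups did. The difference over both sexes was −1.65 percentage points early (exact permutation p = 0.10) and −1.47 later (exact permutation p = 0.0833). With each mRNA weighing equally it was smaller, −1.05 early (exact permutation p = 0.10) and −1.06 later (exact permutation p = 0.05). Over the same 4 groups of early GC, the median log2 change of early load over both sexes was 0.01, −0.06, −0.11 and −0.26 from lowest to highest GC. The change was thus most negative where the window was richest in GC. With each library's GC trend removed, the median over all 1306 mRNAs was −0.11 and 818 were below 0. That trend was centred at 0 in each library, so its removal could not take out a shift shared by all mRNAs.

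Per mRNA, none of 1306 passed an adjusted p of 0.05 in edgeR's quasi-likelihood test with Benjamini-Hochberg adjustment (0.0% in females, males, both sexes and the difference between sexes). Unadjusted p was under 0.05 for 230 mRNAs in females, 38 in males, 184 over both sexes and 43 in the difference between sexes. DESeq2 called 9 in females, 0 in males, 2 over both sexes and 0 in the difference between sexes. Over both sexes 800 of 1306 changes were below 0 and the median was −0.10. Scaling early and later counts separately by TMM, which takes out a shift shared by all mRNAs, moved these to 683 mRNAs and −0.02. DESeq2 gave 797 and −0.10. With wild-type females 1 and 2 left out, the median was −0.055 over both sexes and −0.051 in females. With all libraries the female median was −0.117. Leaving out knockout male 1 gave 19 calls over both sexes, knockout female 3 gave 6 and wild-type male 1 gave 1. In females the calls were 6 without knockout female 3, 5 without either knockout male and 2 without either wild-type male. The mRNAs with the lowest p are therefore described by their values.

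Snrpd3, the spliceosomal protein Sm D3, had the lowest p over both sexes. Its early share was 96.9%, 96.0% and 95% in knockout females against 91.4%, 90.7% and 86.9% in wild-type females, while knockout males had 93.3% and 95.3% against 89.3% and 88.8% in wild-type males. Genotypes did not overlap in either sex, at a log2 change of 1.25 ± 0.22 (standard error, edgeR adjusted p = 0.0597), but the coding sequence has 126 codons and 9 unique codons in its later region. Vstm2l had an early share of 80.1%, 80.9% and 78.9% in knockout females against 67.2%, 68.7% and 68.0% in wild-type females, while knockout males had 81.1% and 85.9% against 77.6% and 74.0% in wild-type males. Id4, an inhibitor of basic helix-loop-helix factors, Chst2, a sulfotransferase, and Fam163b had values of 0.93, 0.77 and 0.74 on the log2 scale with an adjusted p of 0.125 each in edgeR.

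On the lower side, Mlec, the endoplasmic reticulum lectin malectin, had an early share of 20.5%, 10.6% and 25.0% in knockout females against 46.2%, 45.6% and 38.2% in wild-type females. In males the shares were 34.4% and 23.2% in knockouts against 37.8% and 52.8% in wild types. The log2 change over both sexes was −1.33 ± 0.29 (edgeR adjusted p = 0.109), with no overlap in either sex. Laptm4a, a lysosomal membrane protein, had 1.63%, 1.11% and 2.51% in knockout females against 3.98%, 3.81% and 4.13% in wild-type females, while knockout males had 2.97% and 1.59% against 3.19% and 4.30% in wild-type males, without overlap in either sex. Purb, a single-stranded nucleic acid binding protein, the deubiquitinase Yod1 and the calmodulin-binding scaffold Strn had log2 values of −1.14, −1.35 and −1.46, with edgeR adjusted p of 0.125 to 0.139. No direction of these 10 mRNAs counts as a change by the test. They were named for their low p, so a lack of overlap is no separate support.

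In females alone the lowest p belonged to Mtpn, myotrophin, with an early share of 94.2%, 93.6% and 88.8% in knockouts against 83.8%, 80.6% and 83.3% in wild types (log2 1.36 ± 0.25, edgeR adjusted p = 0.0667). In males it stood at 90.7% and 90.7% in knockouts against 90.9% and 88.3% in wild types. The GTPase Arf3 (1.14), the SNARE protein Ykt6 (1.36), the thioredoxin-domain protein Txndc15 (−1.66) and the aldo-keto reductase Akr7a5 (−1.22) followed, at an edgeR adjusted p of 0.0801 to 0.112. In males the lowest p went to Rpap3 (2.58), Adgra1 (0.81) and the selenoprotein Selenon (1.11) on the higher side, and to the aspartyl-tRNA synthetase Dars (−1.798), Cnnm4 (−1.40), Mtfp1 (−0.75), Snupn (−1.14) and the phosphofructokinase Pfkl on the lower side, all at an edgeR adjusted p of 1.0. Rpap3 had 1 to 8 early footprints per library and Pfkl 0 to 11.

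No list of genes had a called member. Across all 1306 mRNAs, 506 lay above 0 and 800 below over both sexes. The 15 secreted proteins split 6 above and 9 below with a median log2 change of −0.11, and 8 of 10 cytoskeletal mRNAs lay below with a median of −0.28, among them Map1b at −0.35 and Dync1h1 at −0.41, while Stmn3 stood at 0.79. All 5 presynaptic mRNAs lay below 0 (median −0.24), with Bsn at −0.77. Of 5 translation factors 3 lay above, and the median was 0.19, with the neuronal elongation factor Eef1a2 at 0.35, Eef2 at 0.19 and the release factor Etf1 at 0.32. The 6 endoplasmic reticulum chaperones split 3 and 3 with a median of −0.07. At an unadjusted p under 0.05 the 12 lists had 0 to 3 members each, beside 184 of all 1306 mRNAs.

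At the level of single codons, differences passed the test. A site's share is its footprints as a percent of all footprints of its mRNA in that library. Of 3221 early sites with a mean of at least 10 footprints, in 649 mRNAs, edgeR called 65 over both sexes (2.02%), 42 higher (1.3%) and 23 lower (0.714%) in knockouts, in 54 mRNAs. With each library's GC trend removed, the test called 83, of which 66 were higher and 17 lower. Among 13716 later sites, in the whole set of 1306 mRNAs, the fit without that step called 445 (3.24%). The share called was thus no larger early than later, and no test of that difference was made. In females alone edgeR called 336 early sites (10.4%), 195 higher (6.05%) and 141 lower (4.38%), against 1697 later sites (12.4%). In males it called 0 of 3221 (122 at an unadjusted p under 0.05, DESeq2 0), and for the difference between sexes 0 (283 at an unadjusted p under 0.05, DESeq2 0), so the female and male effects were not shown to differ in the full set of libraries. All 65 sites had the same sign in both sexes, which the mean over both favours, against 1932 of 3221 tested.

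The count over both sexes hung on single libraries. Leaving out knockout female 1 left 5 sites, knockout female 2 left 9, wild-type female 1 left 22, wild-type female 2 left 9, wild-type female 3 left 34 and knockout male 2 left 0 (412 at an unadjusted p under 0.05). It came to 99 without knockout female 3, 130 without knockout male 1 and 290 without wild-type male 1, the deepest library. For the female count of 336, the values were 10 and 69 without knockout females 1 and 2, 107, 48 and 186 without wild-type females 1, 2 and 3, and 511 and 519 without wild-type males 1 and 2. Leaving out wild-type male 1 took the male count to 13 and the count for the difference between sexes to 3, and the last came to 33 when wild-type male 2 was dropped. With wild-type females 1 and 2 both left out, edgeR called 0 sites in females and 0 over both (421 and 411 at an unadjusted p under 0.05), with 1 wild-type female assumed to vary like the other groups.

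Chst2, which adds sulfate to N-acetylglucosamine, had its site at codon 72, leucine with asparagine before it, in exon 2 (GRCm38 chr9:95406073-95406075, minus strand). The share was 12.2%, 12.7% and 9.09% in knockout females against 4.10%, 4.08% and 3.22% in wild-type females, while knockout males had 7.36% and 13.8% against 4.56% and 5.56% in wild-type males. The mean share was 11.3% ± 1.96 in knockout females against 3.797% ± 0.502 in wild-type females (SD, n = 3 each). Genotypes did not overlap in either sex, at a log2 change of 1.32 ± 0.26 (edgeR adjusted p = 0.0118, called in 15 of 18 alternatives). Pnmal1 codon 64, an asparagine codon after glutamate in exon 2 (chr7:16960414-16960416, plus strand), had 1.21%, 2.15% and 1.34% in knockout females against 0.519%, 0.435% and 0.555% in wild-type females. In males it had 0.892% and 1.90% in knockouts against 0.574% and 0.422% in wild types, again without overlap, on 4 to 29 footprints per library (log2 1.48 ± 0.36, edgeR adjusted p = 0.0272, called in 9 of 17 alternatives).

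Further sites were higher over both sexes. Vwa1, an extracellular matrix protein, had at codon 48, glutamate after tyrosine (chr4:155773193-155773195, minus strand, exon 2), 29.4%, 17.2% and 9.69% in knockout females against 2.09%, 5.41% and 2.29% in wild-type females. Its males overlapped, at 7.95% and 10.6% in knockouts against 9.62% and 3.97% in wild types (log2 over both sexes 1.43 ± 0.37, edgeR adjusted p = 0.0352, called in 10 of 18 alternatives). Eif1ax, the initiation factor eIF1A, had at codon 61 (chrX:159377542-159377544, plus strand, exon 3) 3.70%, 5.71% and 5.78% in knockout females against 0.758%, 0.904% and 0.875% in wild-type females, on 3 footprints in each of those wild types. In males it had 3.17% and 4.00% in knockouts against 3.15% and 1.89% in wild types (log2 over both sexes 1.44 ± 0.37, edgeR adjusted p = 0.0335, called in 7 of 17 alternatives). At Vwa1 and Eif1ax the female genotypes did not overlap, and at Eif1ax neither did the male ones. Akap11, an anchor of protein kinase A, codon 29 (log2 1.47), Gm2a, the GM2 activator of ganglioside breakdown, codon 36 (1.33), and Ptpn23 codon 26 (1.32) were called as well, at an edgeR adjusted p of 0.0407 to 0.046, and were kept in 5 to 8 of 17 alternatives.

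Ttr had the largest increase among the early sites called over both sexes, at codon 49, a valine codon, with a share of 0.482%, 0.541% and 0.635% in knockout females. Wild-type females 1 and 2 had 0 of 688 and 0 of 1285 Ttr footprints there, which allows shares of up to 0.436% and 0.233%, and wild-type female 3 had 0.0594%. In males the site had 0.207% and 0.321% in knockouts against 0.278% and 0.0680% in wild types, which overlapped (log2 over both sexes 1.96 ± 0.36, edgeR adjusted p = 0.0113, called in 15 of 18 alternatives). Ttr codon 51 had 3.15%, 1.82% and 1.10% in knockout females against 0.291%, 0.311% and 0.320% in wild-type females, while knockout males had 1.24% and 1.39% against 2.01% and 0.272% in wild-type males, which overlapped (1.44 ± 0.38, edgeR adjusted p = 0.0403, called in 10 of 18 alternatives). Total Ttr footprints were 62053, 44188 and 15595 in knockout females against 688, 1285 and 35353 in wild-type females, and the part of choroid plexus content in the 2 sites was not tested. With wild-type females 1 and 2 left out, codons 49 and 51 stood at 1.88 and 1.43 over both sexes, and neither was called.

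Among the female calls named, 3 were not called over both sexes, namely Ppm1l codon 69, in a phosphatase (female log2 2.52, edgeR adjusted p = 0.00615), Ttr codon 41 (−3.03, adjusted p = 0.0186) and Cpe codon 20 (−3.22, adjusted p = 0.0433). Cpe codon 20 turned to a female value of 1.28 once wild-type females 1 and 2 were left out.

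Other sites had a lower share in knockouts. Laptm4a codon 93, cysteine after arginine in exon 1 (chr12:8922238-8922240, plus strand), had 0.124%, 0.0923% and 0.142% in knockout females against 0.421%, 0.773% and 0.891% in wild-type females. In males it had 0.439% and 0.146% in knockouts against 0.560% and 0.552% in wild types. Genotypes did not overlap in either sex, at a log2 change of −1.73 ± 0.31 (edgeR adjusted p = 0.0113, called in 16 of 18 alternatives). The site lay in an mRNA whose whole early share was also among the lowest p on the lower side. The footprints of the site are part of that share, so the 2 results are not independent.

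Ndufa8, a subunit of respiratory complex I, had at codon 65, cysteine after glycine in exon 2 (chr2:36044367-36044369, minus strand), 0.849%, 1.99% and 1.21% in knockout females against 6.48%, 7.26% and 5.09% in wild-type females. Its males overlapped, at 2.27% and 1.53% in knockouts against 2.25% and 3.85% in wild types (log2 over both sexes −1.41 ± 0.29, edgeR adjusted p = 0.0147, called in 14 of 18 alternatives). Rab8b, a GTPase of vesicle traffic, had at codon 20, lysine after glycine in exon 1 (chr9:66919571-66919573, minus strand), 2.33%, 2.22% and 1.49% in knockout females against 12.2%, 12.1% and 7.95% in wild-type females. In males it had 4.74% and 2.58% in knockouts against 7.33% and 6.28% in wild types, without overlap, on 3 to 37 footprints per library (−1.62 ± 0.35, edgeR adjusted p = 0.0191, called in 12 of 17 alternatives).

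Sstr4, a somatostatin receptor, fell at codon 90, glutamate after aspartate (chr2:148395741-148395743, plus strand, exon 1), with 0.496%, 0.142% and 0.544% in knockout females against 1.96%, 3.68% and 3.04% in wild-type females. In males it had 1.59% and 0.271% in knockouts against 1.83% and 2.42% in wild types (log2 over both sexes −1.96 ± 0.44, edgeR adjusted p = 0.021, called in 11 of 17 alternatives). Pgrmc1, a haem-binding membrane protein, fell at codon 59, the second of 2 aspartate codons in capitals above (chrX:36598464-36598466, plus strand, exon 1), with 0.287%, 0.0891% and 0.225% in knockout females against 0.966%, 0.419% and 0.363% in wild-type females. In males it had 0.321% and 0.140% in knockouts against 0.467% and 0.667% in wild types (−1.36 ± 0.35, edgeR adjusted p = 0.0343, called in 9 of 18 alternatives). At Sstr4 and Pgrmc1 the genotypes did not overlap in either sex. All these sites were named for changes called in the same libraries, so a lack of overlap at any of them is no separate support. The other named sites with a lower share were Plpp3 codon 36 (−1.68), Nudcd3 codon 45 (−1.62), Hepacam codon 89, in a glial adhesion protein (−1.55), Tubb4a codon 73, in a β-tubulin (−1.54), and Ppp2ca codon 64, in the catalytic subunit of phosphatase 2A (−1.36), on the log2 scale over both sexes. These 5 were called in 7 (Nudcd3) to 12 (Plpp3) of 17 or 18 alternatives.

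**Figure D3:**
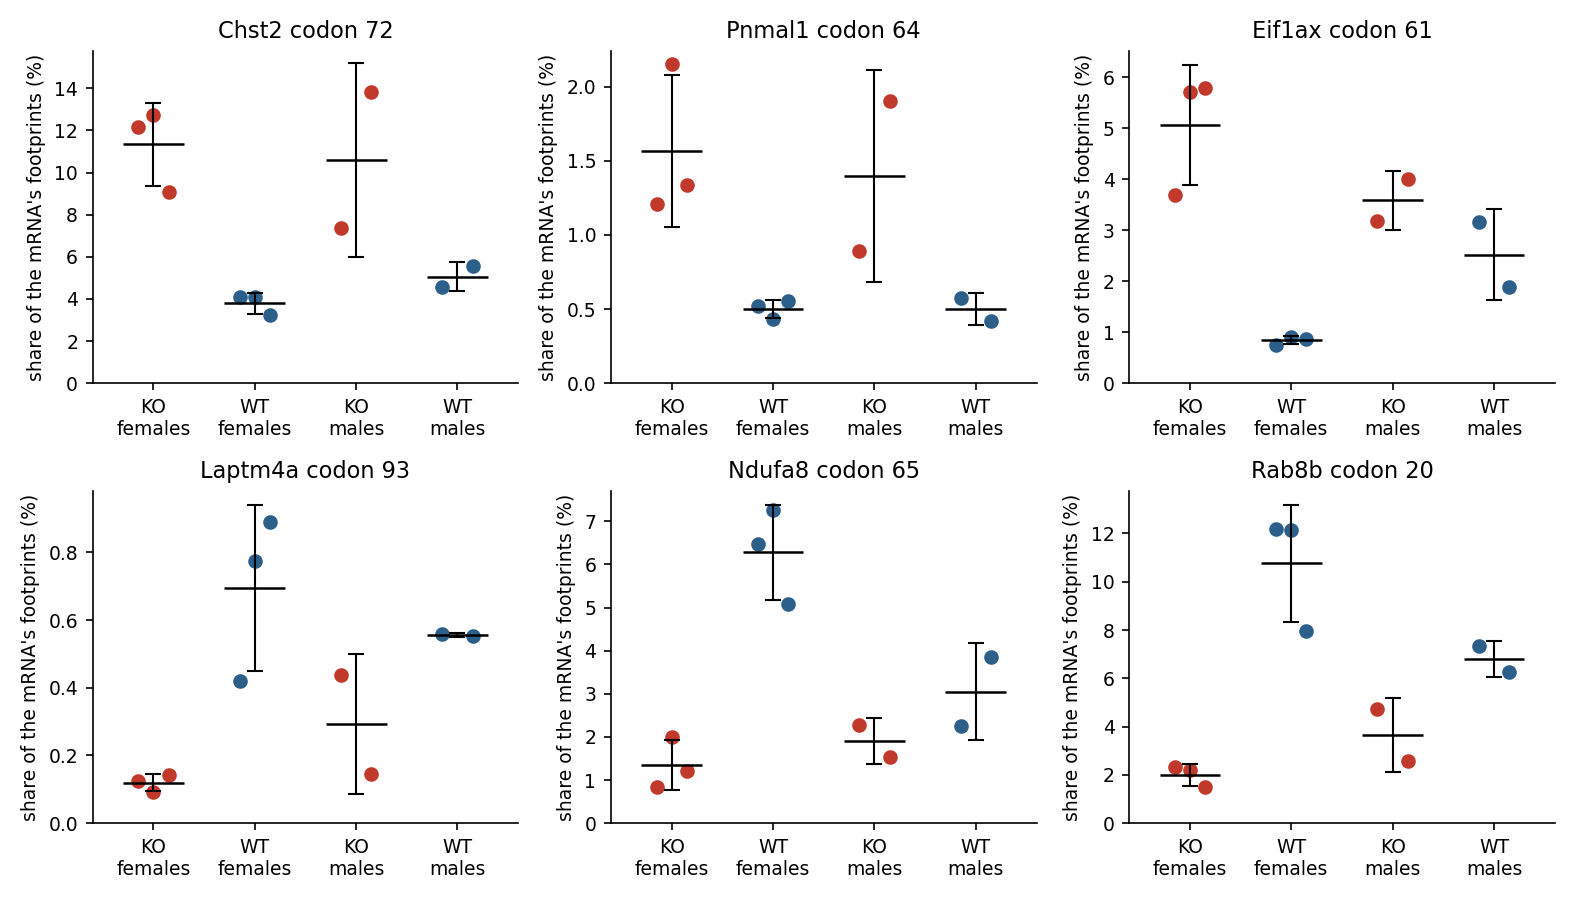
Share of the mRNA's footprints (vertical axis, percent) at 6 early codons in knockout and wild-type females and males. Points are animals, and lines are means with SD. The upper row shows sites with a higher share in knockouts and the lower row sites with a lower share, and of these groups only the Ndufa8 males overlap between genotypes. The sites were chosen from those called in these libraries, so the lack of overlap is no separate support.

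By GC, the 42 higher sites had a median of 50.0% in their surrounding 28 bases and the 23 lower sites 60.7%, beside 53.6% for all 3221 tested. Across these sites GC and the log2 change had a Spearman's rho of −0.348, and later sites gave −0.328 (13714 sites). The codons around them also differed. Tyrosine was the codon before the listed one in 7 of the 42 higher sites (16.7%) and 0 of the 23 lower sites, beside 2.98% of all early sites tested. Asparagine was there in 5 of the higher (11.9%) and 0 of the lower sites, beside 3.91%. Aspartate was there in 1 of the higher and 8 of the lower sites (34.8%), beside 11.4%. Glycine, outside the 4 queuosine amino acids, was there in 2 of the higher (4.76%) and 4 of the lower sites (17.4%), beside 14.8%. Proline was there in 1 higher and 1 lower site, and the control codons of phenylalanine, cysteine and serine in 3 higher and 1 lower. In the female calls glycine was there in 14 of 195 higher and 31 of 141 lower sites (22.0%). Above codon 100 it was there in 14 of 269 higher and 41 of 176 lower sites over both sexes (23.3%), beside 14.2%. As the listed codon itself aspartate was in 8 of the higher (19.05%) and 3 of the lower sites (13.0%), both above the 10.4% of all. Among the female calls it was listed in 19 of 195 higher (9.74%) and 17 of 141 lower sites (12.1%). Above codon 100, over both sexes, aspartate was the listed codon in 64 of 269 higher (23.8%) and 8 of 176 lower sites (4.55%), beside 11.5%.

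Summed over all early footprints, the codon before the listed one showed the same order. Enrichment is the log2 of its share of early footprints over its share of early positions, in 1304 mRNAs. Abundant mRNAs weigh more in such a sum, and the part of Ttr in these values was not tested. For tyrosine it was 0.75, 0.69 and 0.66 in knockout females against 0.14, 0.26 and 0.25 in wild-type females, while knockout males had 0.43 and 0.79 against 0.26 and 0.20 in wild-type males. Every knockout lay above every wild type of its sex, and the difference over both sexes was 0.43 (exact permutation p = 0.0167, the smallest possible, and 0.075 adjusted over 36 tests). For asparagine the values were 0.29, 0.34 and 0.30 in knockout females against 0.01, 0.09 and −0.02 in wild-type females, while knockout males had 0.21 and 0.25 against 0.04 and −0.24 in wild-type males. That difference was 0.31 (exact permutation p = 0.0167, adjusted 0.075), so neither passed after adjustment.

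Aspartate went the other way in females, at 0.85, 0.91 and 0.96 in knockouts against 1.25, 1.30 and 1.16 in wild types. In males it was 0.89 and 0.94 in knockouts against 0.96 and 0.93 in wild types, which overlapped, and the difference over both sexes was −0.18 (exact permutation p = 0.0333, adjusted 0.133). Histidine differed by 0.11 (exact permutation p = 0.417). The 8 queuosine codons together differed by 0.05 (exact permutation p = 0.40), beside 0.07 (exact permutation p = 0.25) for the 6 control codons of phenylalanine, cysteine and serine. At the listed codon itself the set differed by 0.03 (exact permutation p = 0.583) and aspartate alone by 0.00853 (exact permutation p = 0.95).

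For the codon before the listed one, differences of like size were found further on. Above codon 100 tyrosine differed by 0.42, asparagine by 0.25 and aspartate by −0.18 (exact permutation p = 0.0167 each, adjusted 0.075). Early minus later, the differences came to 0.01 for tyrosine (exact permutation p = 0.783), 0.06 for asparagine (exact permutation p = 0.217) and −0.00102 for aspartate (exact permutation p = 1.0). The listed codon differed more above codon 100, where the queuosine set came to 0.12 and aspartate to 0.15 (exact permutation p = 0.0167 each, adjusted 0.075). Early minus later, these were −0.09 for the set (exact permutation p = 0.0667, adjusted 0.218) and −0.14 for aspartate (exact permutation p = 0.0833, adjusted 0.25). No change of these codons was thus shown to be particular to codons 15 to 100. Tyrosine and asparagine codons are poor in GC, the GC of the footprints by library is given above, and the part of GC in the codon values was not tested.

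**Figure D4:**
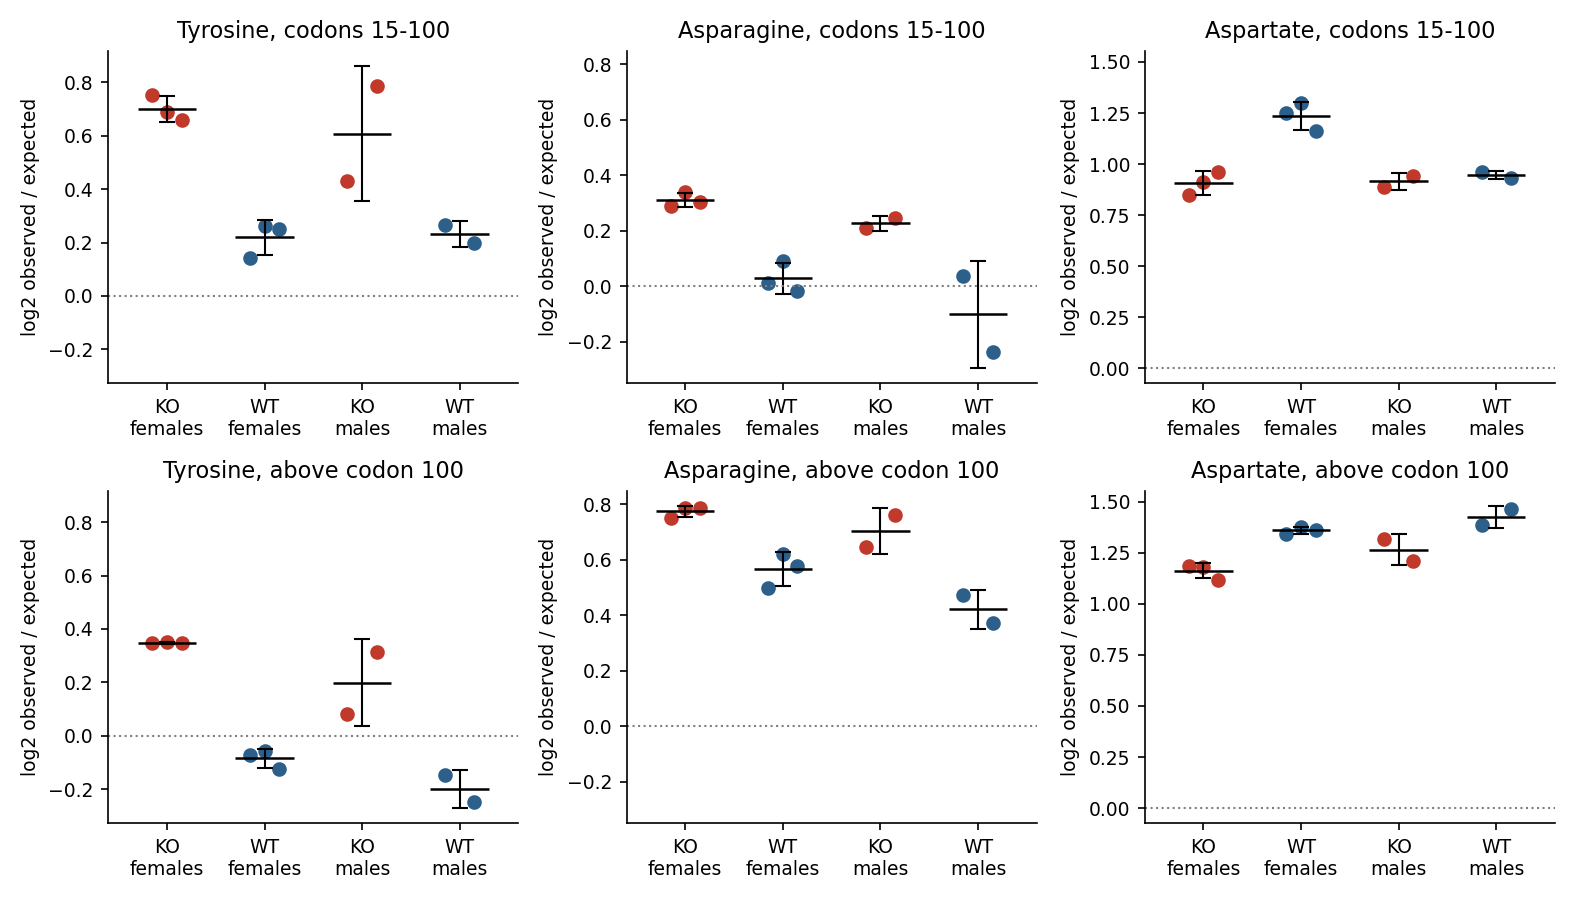
Log2 enrichment of the codon before the listed one (vertical axes), for tyrosine, asparagine and aspartate, at codons 15 to 100 (upper row) and above codon 100 (lower row), in knockout and wild-type females and males. Points are animals, lines are means with SD, and the dotted line marks no enrichment. In both sexes the mean of knockouts lies above that of wild types for tyrosine and asparagine and below it for aspartate, in both rows.

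Some early codons held a large part of their mRNA in every library. Tppp codon 86, in a tubulin polymerisation protein of oligodendrocytes, took 36.5%, 34.5% and 37.0% in knockout females against 38.6%, 43.6% and 41.8% in wild-type females, while knockout males had 44.4% and 43.4% against 44.6% and 45% in wild-type males. It is a glycine codon after aspartate (chr13:74021401-74021403, plus strand, exon 2), and its log2 change was −0.11 ± 0.18 (edgeR adjusted p = 0.749). Ccdc124 codon 41, also after aspartate, took 22.9% to 50.8%, and Gm42372 codon 30, Cisd1 codon 95, in the mitochondrial iron-sulfur protein mitoNEET, and Id4 codon 66 took mean shares of 38.7%, 36.3% and 31.3%. No change at these 5 sites passed the test.

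How evenly footprints spread over the early codons was compared after thinning each mRNA to 50 footprints. In 384 mRNAs the expected number of distinct early codons was 16.2 ± 0.788 in knockout females and 17.5 ± 0.213 in wild-type females (SD, n = 3 each), and 16.1 ± 0.637 in knockout males and 16.5 ± 1.64 in wild-type males (SD, n = 2 each). The difference over both sexes was −0.878 codons (exact permutation p = 0.183, adjusted 0.333). The later sequence gave −1.22 codons over 1115 mRNAs (exact permutation p = 0.25). Footprints of knockouts thus lay on somewhat fewer codons in both regions, within the spread between animals.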

How the data were processed

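Hippocampal ribosome footprints of 10 mice were analysed, with markers and Qtrt1 from gene counts. The authors deposited footprint counts per codon of an mRNA, without normalisation, and counts per gene. Per the submitters' processing notes, cutadapt 1.8.1, Trimmomatic 0.39, Bowtie 1.0.0 and 1.2.2 and SAMtools 0.1.19 were used. The role of each, the counter, the genome build and any molecular identifiers were not given in the sources used here. Intervals and floors of 3 counts cover counting error only.

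Codons were placed on GENCODE M21 (GRCm38), in which 10992 of 11113 listed mRNAs were found and 10963 had every listed codon matching. Density used codons whose surrounding 28 bases occur in 1 transcript, with at least 20 per region. Window medians (pseudocount 0.5) were compared by two-sided exact permutation of genotype within sex (120 assignments, smallest p 0.0167). Early against later counts per mRNA, and sites with a mean of at least 10 footprints with the total of their mRNA as offset, were fitted over all 10 libraries in edgeR 4.0.16 (quasi-likelihood, Benjamini-Hochberg, threshold 0.05, R 4.3.3), with DESeq2 1.42.0 as an alternative. Both scripts were tested on simulated data. Alternatives were other minima, windows, scalings, a GC trend, a replicate block and leaving out each library.

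Named mRNAs and sites are up to 10 called sites per direction over both sexes and 5 in females by size, the 5 lowest p per direction where none was called, the wild-type density extremes and highest site shares at a mean coverage of at least 500, and up to 3 members per list. Members and lists were chosen with earlier results of these data known. Items withheld from the text, which the naming rule would have included, are not reported here.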

Additional observations from a re-analysis of the deposited data

How the results depend on the processing

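Footprints per site were few for many named sites, 2 males per genotype cannot give a permutation p below 0.333, and whole-window values rest on codons of unique sequence. In coding sequences of at least 400 codons the early load differed by 0.0052 between the sexes, the summed share by −0.145 points in females and −0.342 over both, codons 31 to 50 by −0.17, codons 51 to 75 by −0.18, and the later window by −0.11 over both and −0.075 between the sexes. A pseudocount of 2 gave 0.025 in males. At codons 31 to 50, both sexes, a coverage of 200 gave −0.19, mRNAs passing per library −0.23 and leaving out the highest sites −0.20. The last gave −0.20 at codons 51 to 75, −0.10 in the later window and a wild-type density ratio of 0.674, and mRNAs passing per library gave −0.10 in the later window. Samples with the same replicate number did not deviate together (correlations −0.025, −0.029 and −0.106 in females, −0.225 in males). With the replicate block, whose smallest p is 0.0625, codons 31 to 50 gave −0.24, the later window −0.11, tyrosine 0.43, asparagine 0.31 and aspartate −0.18, none under 0.05, and 37 early sites were called over both sexes. Crossing the male numbers in the block called 94 early sites and 2 mRNAs over both sexes. mRNA calls in females were 9 with DESeq2, 8 with TMM, 4 without the GC trend and 1 each with a mean coverage of 50, codons 30 to 100 and the highest sites left out. Over both sexes they were 2, 2, 0, 1, 1 and 1 under the same settings. DESeq2 called 218 early sites in females, and without wild-type females 1 and 2 edgeR called 0 in females and 0 over both, and Cpe codon 20 was at 1.28. Leaving out each library in turn, the median early load ran −0.18 to −0.096 in females, −0.082 to 0.037 in males, −0.11 to −0.053 over both, −0.18 to −0.062 between the sexes. The summed share ran 1.7 to 2.9 in females, −1.52 to 0.485 in males, 0.351 to 1.35 over both, 1.74 to 3.74 between the sexes. Codons 15 to 30 ran −0.52 to −0.26 in females, −0.11 to 0.13 in males, −0.26 to −0.13 over both, −0.53 to −0.25 between the sexes. Codons 31 to 50 ran −0.40 to −0.26 in females, −0.30 to −0.015 in males, −0.31 to −0.17 over both, −0.31 to −0.03 between the sexes. Codons 51 to 75 ran −0.23 to −0.11 in females, −0.16 to −0.022 in males, −0.17 to −0.10 over both, −0.16 to −0.014 between the sexes. Codons 76 to 100 ran −0.18 to −0.12 in females, −0.095 to 0.027 in males, −0.12 to −0.065 over both, −0.18 to −0.052 between the sexes. The later window ran −0.11 to −0.054 in females, −0.22 to −0.022 in males, −0.15 to −0.052 over both, −0.0599 to 0.12 between the sexes. The queuosine set as listed codon ran −0.083 to 0.0087 in females, 0.016 to 0.15 in males, −0.00301 to 0.063 over both, −0.17 to −0.039 between the sexes. The set as codon before ran −0.034 to 0.0061 in females, 0.06 to 0.18 in males, 0.022 to 0.081 over both, −0.20 to −0.077 between the sexes. The set early minus later ran −0.051 to −0.025 in females, 0.029 to 0.14 in males, −0.0033 to 0.0499 over both, −0.17 to −0.064 between the sexes. Tyrosine ran 0.44 to 0.50 in females, 0.20 to 0.56 in males, 0.34 to 0.52 over both, −0.076 to 0.28 between the sexes. Asparagine ran 0.26 to 0.31 in females, 0.19 to 0.47 in males, 0.24 to 0.37 over both, −0.18 to 0.089 between the sexes. Aspartate ran −0.37 to −0.30 in females, −0.062 to −0.0043 in males, −0.20 to −0.17 over both, −0.33 to −0.27 between the sexes. MRNA calls ran 0 to 6 in females, 0 to 0 in males, 0 to 19 over both, 0 to 0 between the sexes. Early site calls ran 10 to 519 in females, 0 to 13 in males, 0 to 290 over both, 0 to 33 between the sexes. The wild-type density ratio, as a plain mean over libraries, ran 0.741 to 0.783.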
